A study of Sus scrofa with 8 samples.

Results

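The 8210 regions described here carried the histone mark H3K27ac in pig embryonic fibroblasts, were free of called H3K27ac in pig epiblast stem cells, and lay between genes. They were chosen in steps from 98547 merged regions on chromosomes 1 to 18. Islands, the stretches where the ChIP reads of a library cluster, were merged across 4 libraries wherever they overlapped. A merged region was kept when it was under 20 kb wide, held an island of both fibroblast libraries and of neither epiblast library, and touched no protein-coding gene and no window of 2 kb around a gene end. The fibroblast libraries, called pEF 1 and pEF 2, came from porcine embryonic fibroblasts at day 30 of development. The epiblast libraries, called pgEpiSC 1 and pgEpiSC 4, were made from stem cells of the pre-gastrulation epiblast, with the developmental stage given as day 10. Each of these 4 libraries had an input of its own, that is, chromatin sequenced without the antibody. The labels give no treatment or genotype. They leave unsaid if both libraries of 1 cell type had a common line, animal or culture, so p-values measure only the spread between these libraries, which may be technical.

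H3K27ac is acetylation of lysine 27 on histone H3, deposited mainly by the acetyltransferases p300 and CBP. It marks active promoters and active enhancers, and away from promoters it is the mark most often used to map enhancers in use in a cell type. Embryonic fibroblasts are mesenchymal cells that secrete and remodel the collagen-rich matrix, and their identity rests on transcription factors of the TWIST, PRRX, RUNX and TBX families.

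ChIP reads inside islands of chromosomes 1 to 18 numbered 28.6 M and 36.6 M in pgEpiSC 1 and 4, and 41.3 M and 45.1 M in pEF 1 and 2. Enrichment over input differed between the types: the median island reached 1.79 and 1.67 times the scaled input in the epiblast libraries against 3.40 and 3.45 in the fibroblast libraries. The regions were selected on the absence of an epiblast island, and the part that the weaker enrichment of the epiblast libraries has in that absence was not tested. The lists give no reads outside islands, so absence of an island does not mean absence of reads. In bulk chromatin, fewer cells that carry a mark and less mark per cell cannot be told apart. Against the labels, islands covered all 8 fibroblast markers (among them COL1A1, TWIST1 and VIM) in both pEF libraries, from 7.22 kb upwards. Summed over these 8 genes they covered 218 and 215 kb in pEF and 54.8 and 25.7 kb in pgEpiSC. Over 9 gene records of 8 epiblast markers they covered 140 and 146 kb in pgEpiSC and 12.2 and 19.6 kb in pEF, where LIN28A, OTX2, SALL4 and both records of NANOG were at 0 kb.

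The regions were short stretches, with a median width of 4.0 kb and a middle 50% from 2.8 to 6.2 kb, and they covered 41.1 Mb in all. In pEF 1 a region held a median of 278 ChIP reads against 117 input reads, and in pEF 2 a median of 312 against 115. After scaling to library size the median region stood 3.23-fold over input in pEF 1 and 3.22-fold in pEF 2. In pEF 1 the middle 50% ran from 2.38 to 4.52, and in pEF 2 from 2.39 to 4.51. The median and quartiles of enrichment were thus nearly the same in both fibroblast libraries, and 6367 regions (77.6%) were at least 2-fold over input in both. Region by region the agreement was looser, with a Pearson r of 0.60 and a Spearman rho of 0.56 between the log2 folds, which are descriptions and not a test. At the ends of the scale, 58 regions were at least 10-fold over input in both libraries, and 7 were below input in either. The regions held 14.3% and 15.2% of the islands of pEF 1 and pEF 2 and 9.72% and 10.1% of their ChIP reads in islands.

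Compared with other regions of the same libraries, enrichment was between that of fibroblast-only regions inside genes and that of fibroblast-only regions at gene ends. The 7229 regions inside genes had a median fold of 3.03 in pEF 1 and 2.99 in pEF 2, and the 1528 at gene ends had 3.77 and 3.48. The 3319 regions between genes that all 4 libraries shared reached 3.84 and 3.75 in the fibroblast libraries and were 8.4 kb wide at the median. The 8992 epiblast-only regions between genes, chosen by the mirrored rule, were wider, at a median of 6.0 kb, and less enriched, at 1.82 and 1.73 in their own libraries. These are descriptions of sets chosen on the same islands and were not tested.

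Read density, the ChIP reads per kb of island per M reads in islands, was 2.13 in pEF 1 and 2.10 in pEF 2 at the median. Across the 8210 regions the log2 densities of the libraries correlated with a Pearson r of 0.66 and a Spearman rho of 0.62, values that describe regions of the same 2 libraries and are not a test. Densities lay within 1.5-fold of each other in 73.9% of regions and within 2-fold in 93.6%, which left 528 regions beyond 2-fold. The 3 most unequal regions, picked out after their values were seen, were 400 bp wide and denser in pEF 1. At chr2:95775201-95775600, nearest to TMEM161B, pEF 1 held 2548 ChIP reads and 143 input reads, while pEF 2 held 209 and 109. At chr1:250771401-250771800, nearest to PALM2, pEF 1 held 1369 ChIP reads and pEF 2 held 130. In the opposite direction the gap was smaller: chr1:36819401-36825800, nearest to TRMT11, held 194 reads in pEF 1 and 1516 in pEF 2. Within the regions, the stretch covered by islands of both libraries had a median of 71.4% of the width, and it reached at least 50% in 6933 regions.

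**Figure D1:**
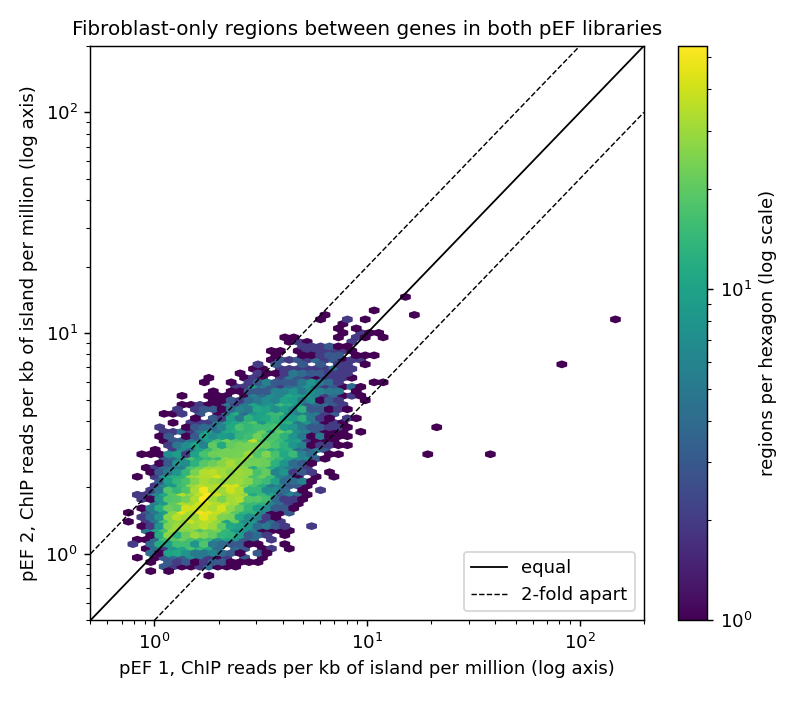
Read density of the 8210 regions in pEF 1 (x axis) and pEF 2 (y axis), in ChIP reads per kb of island per M reads in islands, both on log axes, with colour giving the number of regions per hexagon. The cloud follows the line of equality with 93.6% of regions between the dashed 2-fold lines, and a few narrow regions stand far to the right, dense in pEF 1.

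Enrichment was highest in the widest regions, but it did not follow width throughout. The 678 regions under 2 kb had a median fold of 3.11 in pEF 1 and 2.85 in pEF 2, and the 4460 regions from 2 to 5 kb had 2.90 and 2.91. The 2354 regions from 5 to 10 kb had 3.6 and 3.73, and the 718 regions of 10 kb or more had 4.62 and 4.74. The share at least 2-fold over input in both libraries was 78.2% under 2 kb, 71.3% from 2 to 5 kb, 83.8% from 5 to 10 kb and 95.5% in the widest class, so it was lowest from 2 to 5 kb. Wider regions hold more reads, so their fold is measured more precisely. Distance to a gene made little difference: regions under 10 kb from a gene had median folds of 3.32 and 3.14, and those 500 kb or more away had 3.01 and 3.12. Regions that stood alone (3.24 and 3.24) and regions in runs of 10 or more (3.21 and 3.29) were alike to within 0.1 in median fold. Regions with an epiblast island within 5 kb had median folds of 3.15 and 3.08, and those with none within 50 kb had 3.06 and 3.17.

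The regions with the most reads were wide stretches at a distance from the nearest gene. The region at chr2:43228201-43247000 held the most by the lower library, with 6615 ChIP reads in pEF 1 and 9917 in pEF 2, or 13.9-fold and 15.3-fold over input. It lay 159 kb from SOX6, a transcription factor gene of cartilage and muscle development, on the side of INSC. The region at chr9:134397001-134412000, 173 kb from PLXNA2 (a semaphorin receptor gene), held 6137 and 6867 reads, at 18.6-fold and 16.1-fold. It was also the only region among the 10 highest both by reads and by fold. The region at chr7:39638401-39656000 lay between CDC5L and SUPT3H, 107 kb from SUPT3H, with 6235 and 6653 reads at 12.8-fold and 12.3-fold. The other 7 of the 10 with most reads were nearest to FBXL17, DAB2, DYSF, PTPRC, SERPINE2, PGM2 and ACVR2A. SERPINE2 encodes a secreted protease inhibitor, DAB2 an endocytic adaptor and ACVR2A an activin receptor. PTPRC encodes the leukocyte antigen CD45, and its region at chr10:22071801-22086400, with 5581 and 5157 reads, lay 470 kb from it in the interval that ends at NR5A2. In PTPRC itself islands covered 34 and 15 kb in pgEpiSC 1 and 4 and 0 and 3.2 kb in pEF 1 and 2. That difference in length did not pass the test (limma adjusted p = 0.0876).

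Ranked by fold, 4 of the 10 highest regions fell within a short stretch of chromosome 11, and 3 of these had few input reads. The highest, chr11:19770601-19771600, stood 36.5-fold over input in pEF 1 (280 ChIP and 10 input reads) and 62.3-fold in pEF 2 (542 and 10). It lay 99.9 kb from SUCLA2, a mitochondrial ligase subunit gene, on the side of HTR2A. At chr11:19801601-19804800 the counts were 652 and 36 in pEF 1 and 133 and 7 in pEF 2, and at chr11:19827001-19827800 they were 159 and 10, and 226 and 18. The fourth, chr11:19496201-19502400 near MED4, had more input, with 1211 ChIP and 101 input reads in pEF 1 and 895 and 64 in pEF 2. Over the 14 regions assigned to SUCLA2, input density had a median of 29.8 reads per kb in pEF 1 and 27.2 in pEF 2, against 36.3 and 34.7 over all regions. Folds that rest on 7 to 18 input reads have wide counting error. The region near MYC at chr4:11892401-11903000, by contrast, rested on 344 and 361 input reads and stood 15.9-fold and 15.2-fold over input with 4179 and 4762 ChIP reads.

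The regions lay far from genes. The median distance to the nearest end of a protein-coding gene was 76.3 kb, with the middle 50% from 23.5 to 212 kb and the farthest region 1708 kb away. Only 1019 regions (12.4%) were under 10 kb from a gene, 2252 (27.4%) were from 10 to 50 kb away, 1357 (16.5%) from 50 to 100 kb, 2974 (36.2%) from 100 to 500 kb, and 608 (7.41%) 500 kb or more. The epiblast-only regions between genes had nearly the same median, 78.4 kb, while regions that all 4 libraries shared between genes were nearer, at 38.2 kb. The nearest epiblast island was 15.4 kb away at the median. For 1844 regions (22.5%) it was within 5 kb, and for 1488 (18.1%) it was more than 50 kb away. In the mirrored set, the nearest fibroblast island was 23.6 kb away.

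**Figure D2:**
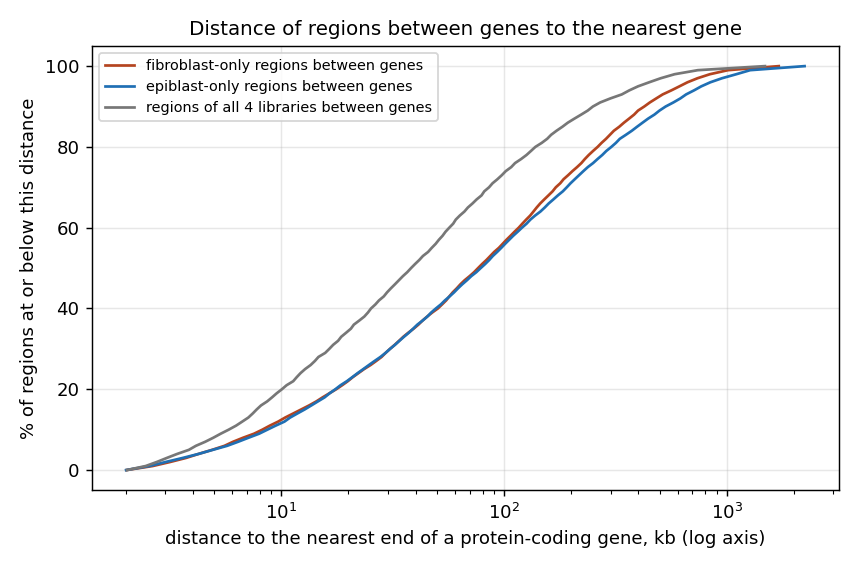
Percentage of regions (y axis) at or below each distance to the nearest end of a protein-coding gene in kb (x axis, log), for fibroblast-only, epiblast-only and shared regions between genes. The fibroblast-only and epiblast-only curves nearly coincide, with medians of 76.3 and 78.4 kb, and the shared regions lie nearer to genes, with a median of 38.2 kb.

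The regions were clustered along the chromosomes. With neighbours up to 50 kb apart counted as a run, 1731 runs of at least 2 regions held 5721 regions (69.7%), and 304 runs of at least 5 held 2115. The other 2489 stood alone. Of the epiblast-only regions between genes, 65.1% lay in such runs, with 229 runs of at least 5 and 22 regions in the largest. Of 16320 intervals between neighbouring protein-coding genes, 2603 (15.9%) held a region, and 174 intervals with at least 10 held 2697 regions (32.9% of all). Of the 522 intervals of 500 kb or more, 49 held none.

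The 5 runs with most regions spanned 291 to 470 kb each. The largest, at chr15:119471001-119940600, held 28 regions over 470 kb between TNP1 and TNS1, ending 7.53 kb from TNS1, which encodes tensin 1, a protein that links integrins to actin at focal adhesions. In that span pEF 1 had 35 islands and pEF 2 had 37, while pgEpiSC 1 had 0 and pgEpiSC 4 had 1. The second held 18 regions at chr9:86577001-86952800 and ran from 21.1 kb off AHR, the aryl hydrocarbon receptor gene, to 11.2 kb off SNX13. The third held 17 at chr8:97539801-97896600 between INTU, a ciliogenesis gene, and FAT4, a protocadherin gene. The fourth held 16 at chr15:122200801-122515600 between SLC4A3 and EPHA4, an ephrin receptor gene of limb patterning. The fifth held 15 at chr4:11783401-12074400 between FAM49B and MYC, and its median folds of 4.17 in pEF 1 and 3.98 in pEF 2 were the highest of the 5 runs, the others lying between 2.36 and 3.14. The 4 libraries had 21 and 18 fibroblast islands and 0 and 1 epiblast islands in that run.

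MYC, which encodes a transcription factor of growth and proliferation, was the nearest gene of more regions than any other, 34 in all. Of these, 19 lay on its lower-coordinate side and 15 on its higher-coordinate side, from 69.8 to 851 kb away. A single region was within 100 kb, and 13 were more than 500 kb away. The flanking genes FAM49B and FAM84B lay 1812 and 985 kb from MYC, and the part of these wide gaps in the 34 regions was not tested. In the whole stretch between the flanking genes there were 58 fibroblast-only, 6 epiblast-only and 4 shared regions. Island length was summed only over the part of this stretch within 1 Mb of MYC. There, islands covered 546 and 543 kb in pEF 1 and 2 and 289 and 264 kb in pgEpiSC 1 and 4. The longest epiblast islands were 88.6 kb in pgEpiSC 1 and 99.6 kb in pgEpiSC 4, starting 40.3 and 44.3 kb from MYC on its lower-coordinate side. They stood 3.96-fold and 3.58-fold over input. Fibroblast islands lay in the same stretch, at up to 16.4-fold in pEF 1 and 11.2-fold in pEF 2. The longest fibroblast islands on that side, within 1 Mb, were 34.2 and 32.8 kb. At MYC itself and 2 kb either side, islands covered 8.22 and 8.02 kb in the epiblast libraries and 6.96 and 6.56 kb in the fibroblast libraries. That difference did not pass the test (log2 difference pEF minus pgEpiSC of -0.23 ± 0.09 SE, limma adjusted p = 0.168). All 4 libraries shared an island that ran from inside the gene past its higher-coordinate end. Its ChIP reads were 1486 and 1634 in pgEpiSC and 3452 and 5167 in pEF. The fibroblast libraries were higher there by 0.92 on the log2 scale after TMM scaling (edgeR adjusted p = 0.0239). Just below the lower-coordinate end, epiblast islands held 851 reads in pgEpiSC 1 and 896 in pgEpiSC 4. Within 2 kb below that end, pEF 1 had an island of 52 reads and pEF 2 had none. Without an island in all 4 libraries, that side was not tested.

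**Figure D3:**
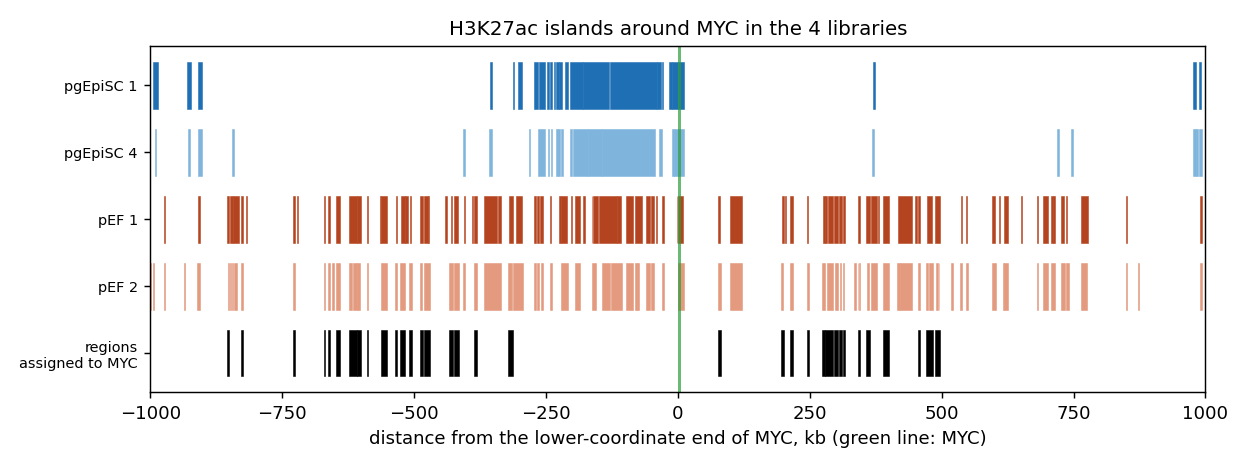
H3K27ac islands of the 4 libraries and the 34 regions assigned to MYC (bars, 1 row each) by distance from the lower-coordinate end of MYC in kb. The longest epiblast islands, of 88.6 and 99.6 kb, lie on the lower-coordinate side of the gene, where fibroblast islands lie too. The fibroblast islands extend through most of the stretch on both sides, where the assigned regions lie from 69.8 to 851 kb away.

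Each region was assigned to its nearest protein-coding gene with a symbol, which is a matter of position and does not show which gene it acts on. A gene with wide intervals on either side has more room for regions than a gene with close neighbours. The part of this in the counts per gene and in the shares of the gene lists below was not tested. The regions were spread over 3005 of 15706 such genes (19.1%), and 127 genes with at least 10 regions held 1751 (21.3%). Of the 3005 genes, 1441 (48.0%) were also nearest to an epiblast-only region, which is 43.8% of the 3291 genes with one. After MYC, the genes with most regions were CITED2 with 32, INTU with 31, FLRT2 with 30, TNS1 with 27, ACVR2A, SLC4A3 and SOX9 with 20 each, and TRIB2 and QKI with 19 each. CITED2 encodes a transcriptional co-regulator that binds p300 and CBP, FLRT2 a cell-surface guidance protein, TRIB2 a pseudokinase and QKI an RNA-binding protein. FLRT2 and ACVR2A also had 13 epiblast-only regions each, while QKI and TNS1 had 0.

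H3K27ac at the genes themselves was then compared between the types by 2 measures taken outside the regions. The first was island length, the kb that islands of a library covered between 2 kb before and 2 kb after the gene, compared on the log2(kb + 1) scale in limma. Over all 15706 genes 9.56% were longer in pEF and 26.6% longer in pgEpiSC at an adjusted p under 0.05. Among the 3005 genes nearest to a region, 519 (17.3%) were longer in pEF and 641 (21.3%) longer in pgEpiSC. The share longer in pEF was 7.73% at genes with no region, 13.8% with 1 region, 18.1% with 2 to 4, 23.2% with 5 to 9 and 34.6% with 10 or more. The share longer in pgEpiSC over the same classes was 27.9%, 23.1%, 20.2%, 18.5% and 18.1%. At the 3291 genes nearest to an epiblast-only region the shares were 7.78% and 36.1%. The split over all genes depends on scaling: when every library was centred on its own median gene, which moved the log2 difference by 0.54 towards pEF, 21.0% were longer in pEF and 21.9% in pgEpiSC. Without islands under 2-fold the shares were 16.6% and 6.38%. Among genes with 10 or more regions 50% and 38.6% were longer in pEF under these settings. Genes with a region were also longer, with a median window of 57.5 kb against 26.0 kb, and the part of gene length in these shares was not tested.

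The second measure was the ChIP reads in merged regions that overlapped a window of 2 kb around a gene end. Only regions with an island of each of the 4 libraries were taken, and edgeR tested them as gene ends. The islands of a library in such a region need not reach the gene end itself. Of 10389 such gene ends, 26.4% were higher in pEF and 25.6% higher in pgEpiSC. Of the 2300 at genes nearest to a region, 861 (37.4%) were higher in pEF and 442 (19.2%) higher in pgEpiSC. At genes with 10 or more regions, 55 of 100 gene ends were higher in pEF and 12 higher in pgEpiSC. Leaving out pgEpiSC 1 or pgEpiSC 4 lowered the 861 to 558 or 532, and the share over all gene ends to 14.7% or 14.5%. The same 4 libraries and the same contrast chose the regions, so these shares describe how the mark varied in their neighbourhood and are not support for the choice of regions.

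**Figure D4:**
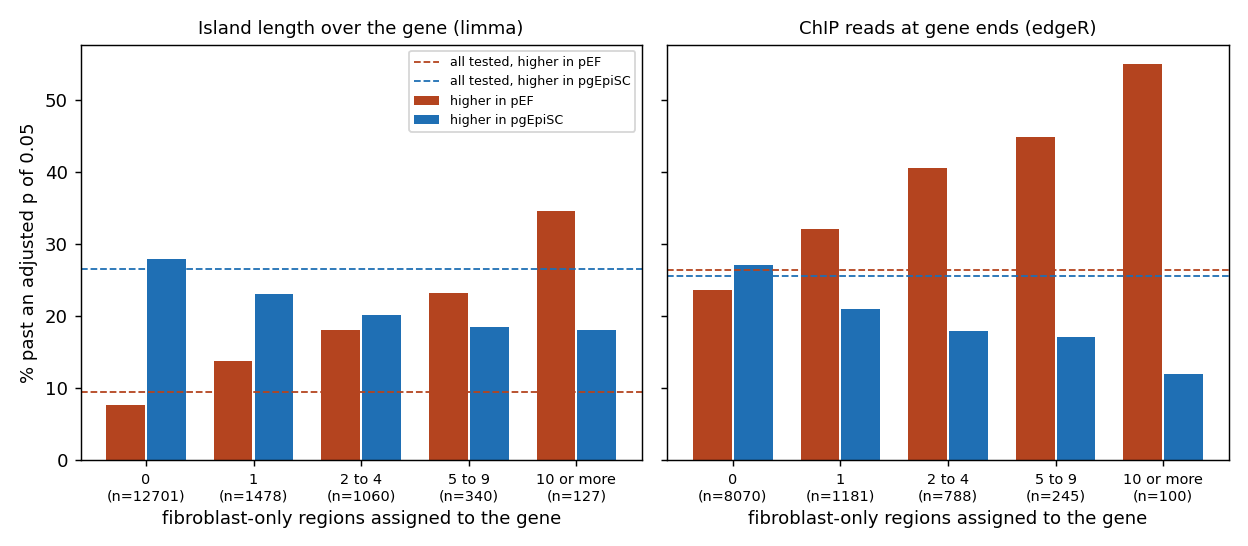
Percentage of genes past an adjusted p of 0.05 (y axis, bars) by the number of regions assigned to the gene (x axis, with the number tested), for island length over the gene in limma (left) and ChIP reads at gene ends in edgeR (right), with dashed lines for all tested. The share higher in pEF goes from 7.73% with no region to 34.6% with 10 or more for island length, and reaches 55% at gene ends.

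The 10 genes with most regions did not share 1 pattern over their own bodies. TNS1 had islands over 23.4 and 35.6 kb in pgEpiSC 1 and 4 and over 175 and 169 kb in pEF 1 and 2, and was longer in pEF by 2.53 ± 0.25 on the log2 scale (limma adjusted p = 0.0148). SOX9, the master regulator of cartilage, had 9.16 and 8.72 kb in pgEpiSC and 4.92 and 4.52 kb in pEF, a difference of -0.80 ± 0.11 (limma adjusted p = 0.0241). The call for SOX9 was lost with libraries centred (adjusted p = 0.279), and its direction turned when islands under 2-fold were left out, to 2.51 in favour of pEF (limma adjusted p = 0.00488). The other 8 did not pass the test on length, with adjusted p from 0.0642 (TRIB2) to 0.426 (CITED2), and INTU passed with libraries centred (adjusted p = 0.0406). Island length cannot exceed the gene and 2 kb either side, which limits what it can show at short genes. At CITED2 that is 6.87 kb, covered in full in both pEF libraries, against 6.72 and 4.47 kb in pgEpiSC 1 and 4. COL1A1, TPM1 and TWIST1, described below, were likewise covered in full in both pEF libraries. Reads in the merged gene-end regions of the genes with most regions gave more calls. QKI was higher in pEF by 1.71 (edgeR adjusted p = 0.00423), with 831 and 651 reads in pgEpiSC against 3707 and 3509 in pEF. CITED2 was higher by 1.04 (adjusted p = 0.0122), with 960 and 949 against 2501 and 3297. FLRT2 was higher by 1.46 (adjusted p = 0.0146) and TRIB2 by 0.59 (adjusted p = 0.0340). SLC4A3 was lower at 1 of its merged gene-end regions, by -1.47 (adjusted p = 0.0203), and ACVR2A was higher at 1 of its 2, by 1.71 (adjusted p = 0.00178). INTU and SOX9 did not pass at their ends (adjusted p = 0.270 and 0.0848).

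With 2 libraries per type, these calls depend on the scaling and on each library. Of 88 named gene records 39 were called on island length. With libraries centred 16 more gained a call and 3 lost it, and without islands under 2-fold 11 gained a call and 10 lost it, while SOX9 was called in both with opposite directions. Of the 39, all 39 kept their direction with any 1 library left out, 13 kept their call in all 4 such fits and 12 in none. Among those described here, COL1A2, COL3A1, COL8A1, CXCL12, CHRNA1, HOXC4, NR2F2, TBX15 and TWIST1 kept it with any library left out. All of these but COL8A1 were at 0 kb in both libraries of 1 type. Leaving out either of those libraries could not change the difference, so a kept call does not measure their spread. At TWIST1 the pEF libraries were equal as well, and its log2 difference was 3.04 in all 4 fits. ERG, GLI3, MEIS1, RUNX2 and SOX9 lost it in all 4 fits, with an adjusted p of up to 0.0654, 0.167, 0.127, 0.204 and 0.0882. COL1A1, NR2F1, RUNX1 and TNS1 lost it in 2 fits (up to 0.0770, 0.0589, 0.0890 and 0.107), and SOX6 and TPM1 in 3 (up to 0.0737 and 0.178). At gene ends, ACVR2A, QKI, PDGFRA and the stronger end of PRRX1 kept their call in all 4 fits. CITED2 lost it in 1 fit (up to 0.0902), and FLRT2, MYC, SLC4A3, TRIB2 and the weaker end of PRRX1 lost it in 2 (up to 0.0887, 0.143, 0.0958, 0.245 and 0.110). These are adjusted p-values of limma for length and of edgeR for reads.

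Transcription factors of mesenchymal identity had many of the regions around them. Of 38 listed mesenchymal factor genes, 30 (78.9%) were nearest to at least 1 region, against 19.1% of all genes, and together they had 179 regions. The same genes also had 77 epiblast-only regions on 26 genes, so regions of both types gathered around them. Over their bodies, 22 of the 38 were longer in pEF, 1 was longer in pgEpiSC and 15 did not pass, against 9.56% and 26.6% of all genes. The median log2 difference was 1.83, against -0.34 over all genes. NR2F2, an orphan nuclear receptor gene of mesenchyme, had 18 regions and islands over 0 and 0 kb in pgEpiSC and 16.5 and 17.7 kb in pEF (log2 difference 4.18 ± 0.11, limma adjusted p = 0.00229). Its relative NR2F1 had 15 regions and 0 and 0 kb against 5.14 and 6.54 kb (2.77 ± 0.13, adjusted p = 0.00500). RUNX1, a RUNX family factor, had 16 regions and 19 and 27.4 kb against 166 and 152 kb (2.75 ± 0.23, adjusted p = 0.0110). In all 3 genes every fibroblast library stood above both epiblast libraries.

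The other named factors had fewer regions. RUNX2, the factor of bone formation, had 6 regions and 24.5 and 31.8 kb in pgEpiSC against 49.9 and 52.6 kb in pEF (0.85 ± 0.16, limma adjusted p = 0.0450), a call lost without islands under 2-fold (adjusted p = 0.139). MEIS1, a homeobox partner of HOX proteins, had 8 regions and 38.0 and 35.2 kb against 64.6 and 75.4 kb (0.92 ± 0.12, adjusted p = 0.0226). TBX15, a T-box factor of skeletal and skin mesenchyme, had 5 regions, among them chr4:101898201-101906000 at 12.9 kb with 1547 and 1702 reads. Islands covered 0 and 0 kb of TBX15 in pgEpiSC and 53.2 and 54.4 kb in pEF (5.78 ± 0.10, adjusted p = 0.00227). PRRX1, a homeobox factor of limb mesenchyme, had 2 regions and 36.8 and 16.4 kb against 74.8 and 70.8 kb, which did not pass (adjusted p = 0.105) but did with libraries centred (0.0255). Its gene ends did pass, at 1.06 and 3.17 higher in pEF (edgeR adjusted p = 0.0192 and 0.00343). TWIST1, a basic helix-loop-helix factor of mesenchyme, had 0 regions, with 0 and 0 kb against 7.22 and 7.22 kb (3.04 ± 0.06, limma adjusted p = 0.00227). In TBX15 and TWIST1 both epiblast libraries were at 0 kb and both fibroblast libraries were covered. At TWIST1 the pEF libraries covered the gene and 2 kb either side in full (7.22 kb), so the values within each type were equal. The SE of TWIST1 thus comes from the variance that limma draws from all genes and does not measure replicate spread.

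Patterning genes outside the HOX clusters had many regions near them and HOX genes few. Of 31 patterning homeobox and limb factor genes, 20 (64.5%, against 19.1% of all genes) were nearest to 81 regions. The list also had 88 epiblast-only regions on 20 genes. Over the bodies of the listed genes 10 were longer in pEF (32.3%, against 9.56% of all genes) and 5 longer in pgEpiSC (16.1%, against 26.6%). These counts became 17 and 3 of 30 with libraries centred, against 21.0% and 21.9% of all genes. Without islands under 2-fold they were 17 and 1, against 16.6% and 6.38% of all genes. GLI3, a transcription factor of Hedgehog signalling, had 16 regions and islands over 43.8 and 34.4 kb in pgEpiSC against 74.7 and 92.9 kb in pEF (1.08 ± 0.20, limma adjusted p = 0.0422). Of 36 HOX gene records, 33 were longer in pEF (91.7%), but 4 were nearest to a region (11.1%, against 19.1% of all genes), with 5 regions in all. The strongest of these, chr5:19289801-19296000 at 21.5 kb from HOXC4, held 2391 and 1269 reads at 13.3-fold and 8.43-fold. HOXC4 itself had 0 and 0 kb in pgEpiSC and 17.3 and 17.2 kb in pEF (4.19 ± 0.10, adjusted p = 0.00227). The region at chr15:81947401-81964600, between HOXD8 and HOXD3, overlapped the gene of the microRNA MIR10B and held 1596 and 1329 reads at 3.73-fold and 3.72-fold. It was 1 of 4 regions that overlapped a microRNA gene, the others being those of MIR129A, MIR9813 and MIR7141, with 432 to 1180 reads in either library.

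Matrix genes had 85 of the regions around them. Of 32 fibroblast extracellular matrix genes, 17 (53.1%, against 19.1% of all genes) were nearest to at least 1. The list also had 10 epiblast-only regions on 6 genes. Over the bodies of the 32 genes 18 were longer in pEF (56.2%, against 9.56% of all genes) and 1 longer in pgEpiSC (3.12%, against 26.6%). COL1A2, a chain gene of type I collagen, had 5 regions from 8.08 to 142 kb away, with 0 and 0 kb of islands in pgEpiSC against 39.1 and 38.3 kb in pEF (5.31 ± 0.11, limma adjusted p = 0.00227). COL1A1, the other chain gene of type I collagen, had 0 regions and 3 and 4.11 kb against 22.1 and 22.1 kb (2.35 ± 0.17, adjusted p = 0.00866). COL3A1, of type III collagen, had 1 region of low fold (1.41 and 1.98) and 0 and 0 kb against 38.2 and 42.0 kb (5.36 ± 0.12, adjusted p = 0.00227). For these 3 collagen genes both pEF libraries stood above both pgEpiSC libraries. COL12A1, of a fibril-associated collagen, had 13 regions, among them chr1:91102801-91119600 with 3401 and 6446 reads. Its own islands covered 10.2 and 0 kb in pgEpiSC against 80.2 and 112 kb in pEF, and with the epiblast libraries that far apart it did not pass (adjusted p = 0.101), but it did with libraries centred (0.0324) and without islands under 2-fold (0.00681). COL8A1, of a short-chain collagen, had 11 regions and 22.2 and 19.2 kb against 159 and 158 kb (2.88 ± 0.10, adjusted p = 0.00340). SERPINE2 had 10 regions and 2.62 and 8 kb against 14.0 and 10.4 kb, which did not pass (adjusted p = 0.222) but did in both of those settings (0.0490 and 0.0130).

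Among 29 genes of the fibroblast surface and of signalling, 18 (62.1%, against 19.1% of all genes) were nearest to 65 regions. The list also had 23 epiblast-only ones on 9 genes. Over the bodies of the listed genes 12 were longer in pEF (41.4%, against 9.56% of all genes) and 4 longer in pgEpiSC (13.8%, against 26.6%). These counts became 17 and 3 with libraries centred, against 21.0% and 21.9% of all genes. Without islands under 2-fold they were 17 and 1, against 16.6% and 6.38% of all genes. CXCL12, a stromal chemokine gene, had 11 regions from 44.9 to 270 kb away, yet its own body had 8.80 and 7.40 kb of islands in pgEpiSC and 0 and 0 kb in pEF (-3.18 ± 0.11, limma adjusted p = 0.00320). That call was lost without islands under 2-fold (-1.36, adjusted p = 0.497). PDGFRA, the receptor gene by which fibroblasts are often recognised, had 1 region of 1.4 kb and 7.40 and 3.63 kb against 14.6 and 13.4 kb, which did not pass (adjusted p = 0.0943) but did with libraries centred (0.0222) and without islands under 2-fold (0.00578). Its gene end passed too, with 164 and 221 reads in pgEpiSC and 2831 and 3825 in pEF (3.58, edgeR adjusted p = 0.000503). THY1, the gene of the surface antigen CD90, had 1 region and 5.78 and 0 kb against 8.38 and 7.80 kb, which did not pass (limma adjusted p = 0.327) but did without islands under 2-fold (0.00488).

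The list of AP-1, TEAD and YAP genes, of factors that act at fibroblast enhancers, had regions near 4 of 18 genes (22.2%), a share close to the 19.1% of all genes, with 16 regions in all. JUN, an AP-1 subunit gene, had 5 of them, among them chr6:153697801-153716000 at 10.2 kb with 2405 and 1869 reads. TEAD1 had 5 and ANKRD1, a target gene of YAP, had 5. Over the bodies of the list 1 gene was longer in pEF and 1 longer in pgEpiSC (5.56% each, against 9.56% and 26.6% of all genes). None of JUN, TEAD1 and ANKRD1 passed (limma adjusted p = 0.217, 0.125 and 0.0827). At JUN, islands of both pEF libraries covered the gene and 2 kb either side in full (5.21 kb), so this length could not be greater. With libraries centred the counts were 6 and 0, against 21.0% and 21.9% of all genes. In that setting the median log2 difference turned from -0.05 to 0.49, and JUN and ANKRD1 passed (0.0266 and 0.0182). Without islands under 2-fold the counts were 4 and 0, against 16.6% and 6.38% of all genes, and ANKRD1 passed (0.00665). At gene ends JUN was higher in pEF by 1.97 (edgeR adjusted p = 0.000779) and ANKRD1 by 3.27 (edgeR adjusted p = 0.000462). The merged region at ANKRD1 was 44.6 kb wide. The 444 reads of pgEpiSC 1 in it came from outside the gene and 2 kb either side, where that library had 0 kb of islands. TEAD1 did not pass there (edgeR adjusted p = 0.283). Of 13 contractile genes, 3 (23.1%) were nearest to 9 regions, with 6 at MYOCD, a cofactor of smooth muscle genes, 2 at TPM1 and 1 at ACTG2. Over the bodies of these 13 genes 3 were longer in pEF (23.1%) and 0 in pgEpiSC, against 9.56% and 26.6% of all genes. With libraries centred the counts were 10 and 0, against 21.0% and 21.9% of all genes. TPM1, which encodes a tropomyosin, was longer in pEF by 1.07 ± 0.18 (limma adjusted p = 0.0361).

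**Figure D5:**
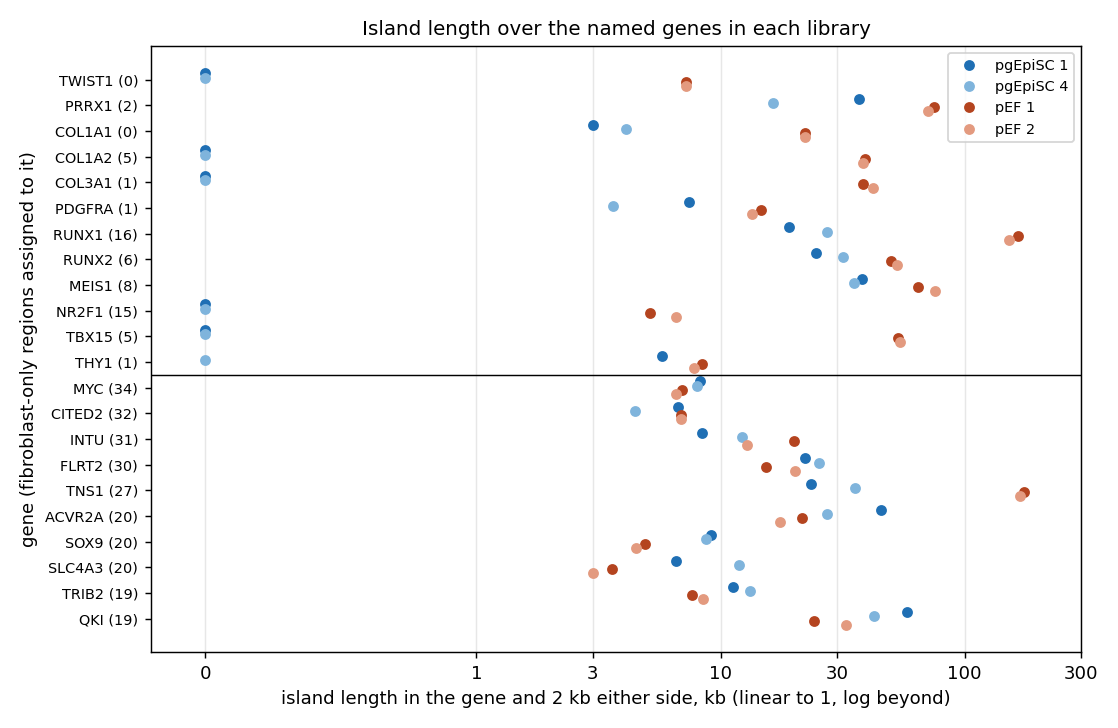
Island length in the gene and 2 kb either side in kb (x axis, linear to 1 and log beyond) for the 12 genes named whatever their result and the 10 with most regions (y axis, with the number of regions), 1 point per library. TBX15, COL1A2, COL3A1, NR2F1 and TWIST1 are at 0 kb in both pgEpiSC libraries, TNS1 and RUNX1 exceed 150 kb in both pEF libraries, and MYC, CITED2 and FLRT2 have points of both types close together.

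Epiblast, epithelial and keratinocyte genes had few or none of the regions. Of 25 gene records of core and primed pluripotency, 2 (8%, against 19.1% of all genes) were nearest to 4 regions, 3 of them 481 to 681 kb from DPPA4 and 1 at 312 kb from SOX2, against 68 epiblast-only regions on 12 genes. Of these records 0 were longer in pEF and 21 longer in pgEpiSC (84%, against 26.6% of all genes). Of 24 epithelial adhesion genes and 10 keratinocyte genes, 0 were nearest to a region. Of the epithelial genes 17 (70.8%) were longer in pgEpiSC, and of the keratinocyte genes 3 (30%), a share close to that of all genes. Of 11 neural progenitor genes, 3 (27.3%, against 19.1% of all genes) were nearest to 4 regions. The list also had 28 epiblast-only ones on 4 genes. Of 15 housekeeping genes, 1 (6.67%) was nearest to 1 region, and 2 were longer in each type (13.3%, against 9.56% and 26.6% of all genes).

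Of the markers of other mesodermal cell types, those of skeletal muscle had regions near them no more often than the 19.1% of all genes, and the other lists had higher shares. Of 13 chondrocyte and bone genes, 7 (53.8%) were nearest to 42 regions, most at SOX9 (20), SOX6 (9) and SOX5 (6). Of these 13 genes 0 were longer in pEF and 8 longer in pgEpiSC (61.5%, against 26.6% of all genes). When islands under 2-fold were dropped these counts became 1 and 0, against 16.6% and 6.38% of all genes. SOX6 had 140 and 136 kb of islands in pgEpiSC and 54.8 and 61.4 kb in pEF (-1.24 ± 0.10, limma adjusted p = 0.0112). Without islands under 2-fold its difference turned to 0.76 and did not pass (adjusted p = 0.212). Of 13 endothelial genes, 7 (53.8%) were nearest to 24 regions, 14 of them at CDH5, the gene of endothelial cadherin, and 2 at ERG. CDH5 had 4.84 and 7.44 kb in pgEpiSC and 1.40 and 0 kb in pEF and did not pass (adjusted p = 0.0790), while ERG, an ETS factor gene, was longer in pEF by 2.19 ± 0.15 (adjusted p = 0.00849). The endothelial genes counted 2 longer in pEF (15.4%) and 1 longer in pgEpiSC (7.69%), against 9.56% and 26.6% of all genes. These counts became 1 and 0 without islands under 2-fold. Of 12 blood cell genes, 5 (41.7%) were nearest to 14 regions, 9 of them at PTPRC. Of 12 skeletal muscle genes, 2 (16.7%) were nearest to 3 regions. In both lists 1 gene was longer in pEF (8.33%) and 4 longer in pgEpiSC (33.3%), shares near the 9.56% and 26.6% of all genes. Without islands under 2-fold the counts were 3 and 1 for blood cell genes and 3 and 0 for skeletal muscle genes. The shares over all genes moved the same way, to 16.6% longer in pEF and 6.38% longer in pgEpiSC. In that setting the median log2 difference was 0.25 for blood cell genes and 0 for skeletal muscle genes, against 0.19 over all genes. CHRNA1, the muscle acetylcholine receptor gene, was the longer in pEF, with 0 and 0 kb in pgEpiSC and 9.46 and 8.6 kb in pEF (3.32 ± 0.09, adjusted p = 0.00227).

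The regions at mesenchymal factor genes had median folds of 3.08 in pEF 1 and 3.07 in pEF 2 at a median distance of 154 kb. The 85 regions at matrix genes had 3.15 and 2.92 at a median distance of 121 kb. Those at surface and signalling genes had 2.87 and 2.79, and those at patterning genes 3.37 and 3.25. All regions together had 3.23 and 3.22. The regions at AP-1, TEAD and YAP genes were higher, at 3.87 and 4.24, over 16 regions. The 42 regions at chondrocyte and bone genes had median folds of 3.56 and 3.88 at a median distance of 200 kb, and the 24 at endothelial genes had 2.86 and 2.58. Among the smallest sets, the 14 regions at blood cell genes had 4.51 and 5.02 and the 9 at contractile genes 5.27 and 3.73. The 5 regions at HOX genes had 3.16 and 3.97, and the 4 at neural genes 4.78 and 3.6. The 4 at pluripotency genes had 2.34 and 2.78, and the 3 at skeletal muscle genes 5.4 and 3.07.

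On the chromosomes, the number of regions went from 142 on chromosome 18 to 1110 on chromosome 1, and was 818 on chromosome 13 and 620 on chromosome 4. Set against the epiblast-only regions between genes of the same chromosome, they were most frequent on chromosome 4, with 1.26 regions for each epiblast-only one, and least on chromosome 6, with 0.563. Annotated long non-coding RNA genes were overlapped by 1757 regions (21.4%), against 19.6% of the epiblast-only and 27.5% of the shared regions between genes. In all, 921 of 5206 such RNA genes overlapped a region. Regions that overlapped one had median folds of 3.15 and 3.19, and the others had 3.24 and 3.22.

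The width limit of 20 kb left out 107 fibroblast-only regions between genes, the widest of them 68.8 kb. Just inside the limit, at 19.8 kb, were chr3:74858801-74878600 between ETAA1 and MEIS1 (6245 and 4840 reads), chr8:40505001-40524800 between LNX1 and CHIC2 (3135 and 4215 reads) and chr13:12259601-12279400 between THRB and RARB (2119 and 5806 reads). Just outside it, at 20 kb, were chr1:40710001-40730000 between HSF2 and GJA1 (3462 and 2062 reads), chr1:79331601-79351600 between RFPL4B and MARCKS (1922 and 5270 reads) and chr1:84271401-84291400 between IBTK and RPL18 (1749 and 2095 reads). These regions on either side of the limit had reads of the same order.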

How the data were processed

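H3K27ac ChIP-seq of 2 pig cell types was taken from 4 island lists, 1 for each H3K27ac library, and the 4 inputs appear as input reads inside them. BWA 0.7.15, SAMtools 0.1.19 and SICER 1.1 are named per the submitters' processing notes. Settings, mapping filters and handling of duplicates: not given in the sources used here. Count columns, as deposited, hold ChIP and input reads per island. The deposited p-value columns hold each island's p-value against input and its FDR, which reached 1 in all lists. The fold, as deposited, is a ratio of ChIP reads over library-scaled input reads. There is 1 list per library, so islands were called per library.

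Neither the labels nor the lists name a genome build. On 18 of 18 chromosomes, islands covered gene ends of the RefSeq table for Sscrofa11.1 more often than sites shifted by 20 kb, and that table supplied gene names and positions. It gives no strand, so both ends of a gene were treated alike. Overlap by 1 bp merged islands. Fold over input in a region was recomputed from its summed counts.

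Island length per gene was tested with limma 3.58.1 (trend, log2(kb + 1), 2 residual degrees of freedom), over 15706 protein-coding genes with a symbol. Genes with no island stayed in that fit, and limma offset variances of 0. Reads in merged regions at gene ends with an island of all 4 libraries were tested with edgeR 4.0.16 (quasi-likelihood, TMM, common dispersion 0.0479). Benjamini-Hochberg adjustment ran over all features, with a threshold of 0.05, and DESeq2 1.42.0 was an alternative. Software was R 4.3.3, matplotlib 3.10.9, scipy 1.17.1, pandas 2.3.3, numpy 2.4.6 and Python 3.11.15. Both fits and the functions for overlaps were tested on simulated data. Alternatives covered the island threshold, the merging, the windows, the width limit, the fits and each library left out.

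Named genes were 12 chosen whatever their result, the 10 nearest to most regions, those nearest to the 10 regions highest in fold and the 10 highest in reads, up to 3 per list with most regions, those flanking the 5 largest runs and the regions at the width limit, and microRNA genes in a region. The 16 lists matched 330 of 361 distinct genes. NANOG and B2M have 2 records each. RPL18, among the named genes, also has 2. The record at the width limit lies on chromosome 1 and did not pass on length. The record that was called lies on chromosome 6 and had 0 regions. The regions, lists and rules were chosen with earlier results of these data known. The genome sequence was not used here.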

Additional observations from a re-analysis of the deposited data

How the results depend on the processing

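The number of regions was 8210 and moved beyond 1.5 times in a single case. It was 12760 without pEF replicate 2, and leaving out each library gave 9075 to 12760. The other alternatives gave 6194 (every annotated gene barred, an alternative chosen after seeing the data) to 9193 (islands of at least 2-fold). Of those 9193 regions, 6387 overlapped a region of the main set. The median distance to a gene was 20.4 kb when every gene of the table counted, against 76.3 kb. Nearest genes longer in pEF numbered 519, and 951 with libraries centred on the median gene (genes with no island left out), 833 with every gene within 100 kb, and 253 to 279 with 1 library left out. Gene ends of nearest genes higher in pEF numbered 861, and 1313 with every gene within 100 kb, 880 by DESeq2 and 532 to 872 with 1 library left out. In each of these settings the share at nearest genes was above the share over all genes. With islands of at least 2-fold alone, island length turned towards pEF for 15 named genes. Of these, 10 had no call in either setting, and 5 had one: FAM49B (0.030), RUNX3 (3.90), SOX6 (0.76), SOX9 (2.51) and TXNRD1 (0.018) on the log2 scale, and the cause was not tested. With 1 library left out, 17 to 22 of the 39 named gene records with a call lost it, in fits whose lone library is assumed to vary like the other type. No paired analysis was possible because pgEpiSC and pEF share a single replicate number and the inputs have no lists of their own. Motif shares were not run. Islands held at least 32 to 45 ChIP reads, so weaker marks are not covered, and with 2 libraries per type precision is low.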
